A study of Mus musculus with 2 samples.

Results

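The cytosolic sulfotransferases and the enzymes that activate sulfate for them were described in mouse liver after injury to the kidneys. The 10 member genes were 8 sulfotransferases (Sult1a1, Sult1b1, Sult1c2, Sult1d1, Sult1e1, Sult2b1, Sult3a1 and Sult5a1) and the sulfate-activating enzymes Papss1 and Papss2. All probe sets that the platform annotation assigns to one of these symbols were taken, 14 of 45101 on the array, standing for 10 of 18193 named genes. The AKI livers came from female C57BL/6 wild-type mice, 8 weeks old, in which both kidneys underwent 30 min of warm ischemia followed by reperfusion, a model of acute kidney injury (AKI). The sham livers came from mice of the same strain, sex, age and genotype that had sham surgery. Livers were collected 24 h after surgery in both groups, and frozen liver of 3 mice (100 mg, as labelled) was pooled in 1 tube, so each group was 1 pool on 1 Affymetrix array. The study asked how liver gene expression differs between these groups.

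Sulfotransferases move a sulfonate group from the donor phosphoadenosine phosphosulfate (PAPS) to hydroxyl or amine groups of hormones, bile acids, neurotransmitters and foreign compounds. The product is more soluble in water and usually less active. PAPS is made from inorganic sulfate and ATP by the Papss enzymes, each of which carries both an ATP sulfurylase and an APS kinase activity. The liver is a main site of sulfation, and its inorganic sulfate comes from the blood and from the oxidation of cysteine.

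Neither group had a replicate array, so the groups could not be tested against each other and p-values are absent. "Higher" and "lower" describe these 2 pools, and the number of arrays limits the precision. Differences are log2 values, AKI minus sham, of the deposited signal plus 71.8, which understates the differences of weak probe sets. A gene stands for its brightest probe set, and it passed the level filter when the signal reached the median of non-control probe sets of at least 1 of the arrays (231.8 AKI, 225.7 sham). The only repeat measurement was a further probe set of the same gene. In 5149 genes several probe sets passed, and differences within the same gene had an SD of 0.70, from 0.90 in the lowest of 4 level classes to 0.66 in the highest, and this SD leaves out the variation between mice.

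Sult1e1 was much higher in the AKI pool, Sult3a1 was lower, and Sult1b1, Papss1 and Sult5a1 were lower by smaller margins. Sult1a1, Sult1d1 and Papss2, which had strong signals on both arrays, differed by less than 2-fold. Of the 10 members, 9 passed the level filter. Among these 9, 1 was at least 2-fold higher, against 10.4% of all 13128 genes past the filter, and 4 were at least 2-fold lower, against 12.5% of all genes. The median difference of the 9 members was -0.83, and that of all genes past the filter was -0.02. Only 5 members passed on both arrays. Sult1e1 passed through the AKI array alone, and Sult1b1, Sult1c2 and Papss1 passed through the sham array alone, so each of these had to differ to some degree and the counts are a description. Over all 10 members, filtered or not, the median was -0.82 and 8 differences were below 0.

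**Figure D1:**
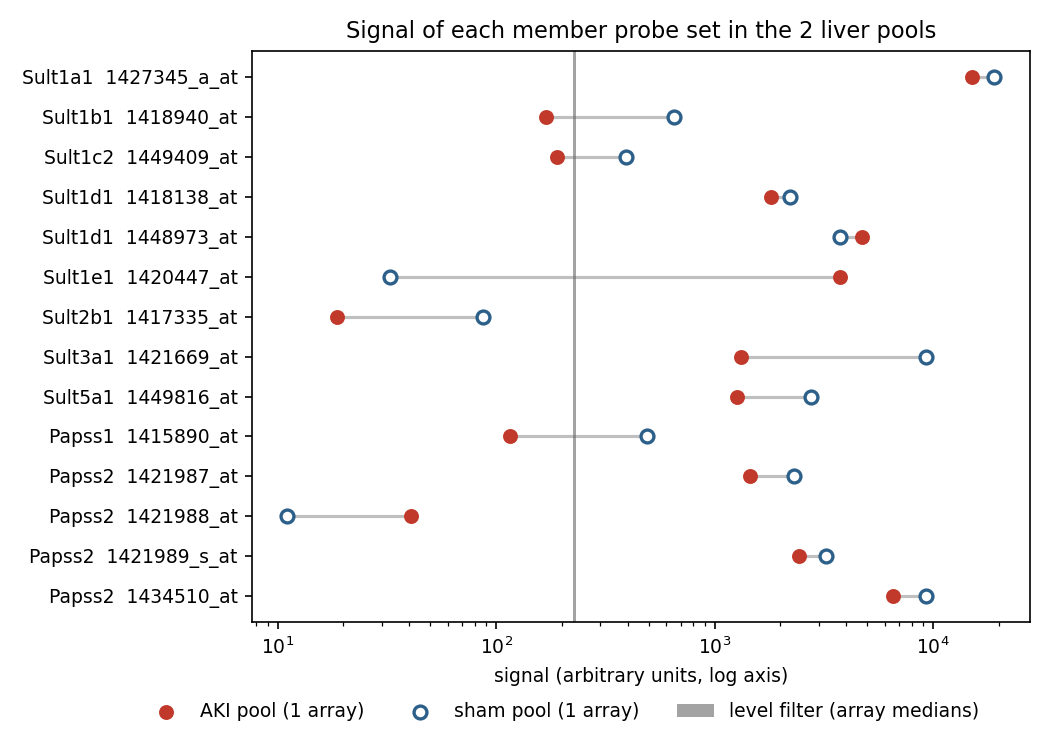
Signal of the 14 member probe sets on a log axis (arbitrary units), with the AKI pool as filled red points and the sham pool as open blue points, 1 array each. The grey line marks the level filter at the array medians; Sult1e1 lies at 3764.3 in the AKI pool and at 32.6 in the sham pool, on opposite sides of it, while Sult3a1 lies above it on both arrays.

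Sult1e1 encodes the estrogen sulfotransferase, which sulfates estradiol and estrone and thereby inactivates them. Its only probe set (1420447_at) had a signal of 3764.3 in the AKI pool and 32.6 in the sham pool. The sham signal was far under the level filter, so the measured ratio of 115, AKI over sham, has an uncertain denominator. With the sham signal set at the filter level of 225.7, the AKI pool was at least 16.7-fold higher. On the log2 scale the difference was 5.20, beside a probe-set SD of 0.74 in its level class.

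Sult1e1 lies next to Sult1d1 and Sult1b1 on chromosome 5, and RefSeq lists 0 other protein-coding genes between them. These neighbours did not share its difference. Sult1d1 encodes an enzyme that sulfates catecholamines such as dopamine, and both of its probe sets had strong signals. One probe set (1448973_at) read 4708.8 in the AKI pool and 3744.2 in the sham pool, a difference of 0.33. The other (1418138_at) read 1816.2 in the AKI pool and 2216.8 in the sham pool, a difference of -0.28. The probe sets of Sult1d1 thus had opposite signs, and each difference was smaller than the probe-set SD of 0.66. Sult1b1, whose enzyme sulfates phenols and thyroid hormones, was lower in the AKI pool. Its probe set (1418940_at) read 169.3 in the AKI pool and 649.2 in the sham pool, a difference of -1.58 beside an SD of 0.74. The AKI signal was under the filter level.

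The sequences upstream of these 3 neighbours, whose differences ran from 5.20 to -1.58, and of Sult3a1, the member with the lowest difference, are shown. Each holds the 250 bases before the outermost RefSeq start site, written along the direction of transcription. The sequences come from the RefSeq annotation of GRCm38.p6, in which all 10 members had an entry. Sult1b1, Sult2b1, Papss1 and Papss2 each had 2 start sites, and the inner ones were not searched for these members. Sult1e1 is at chr5:87591612-87591861 on the minus strand, Sult1d1 at chr5:87569007-87569256 on the minus strand, Sult1b1 at chr5:87538196-87538445 on the minus strand and Sult3a1 at chr10:33857472-33857721 on the plus strand. Capitals mark matches, on either strand, to the motifs given after the sequences.
Sult1e1: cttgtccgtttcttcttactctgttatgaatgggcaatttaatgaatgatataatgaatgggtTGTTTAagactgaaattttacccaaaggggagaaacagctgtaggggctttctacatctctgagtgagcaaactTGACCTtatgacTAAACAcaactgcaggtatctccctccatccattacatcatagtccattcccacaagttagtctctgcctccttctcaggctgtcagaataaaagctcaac
Sult1d1: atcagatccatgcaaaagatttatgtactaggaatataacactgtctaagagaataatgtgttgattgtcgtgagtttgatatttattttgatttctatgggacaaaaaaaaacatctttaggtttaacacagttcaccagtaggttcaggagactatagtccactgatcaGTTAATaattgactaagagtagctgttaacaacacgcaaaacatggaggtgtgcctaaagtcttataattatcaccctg
Sult1b1: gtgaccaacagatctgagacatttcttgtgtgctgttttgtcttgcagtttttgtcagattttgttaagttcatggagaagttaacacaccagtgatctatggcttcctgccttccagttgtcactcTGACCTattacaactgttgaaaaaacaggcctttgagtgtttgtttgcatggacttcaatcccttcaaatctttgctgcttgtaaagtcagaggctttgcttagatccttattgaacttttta
Sult3a1: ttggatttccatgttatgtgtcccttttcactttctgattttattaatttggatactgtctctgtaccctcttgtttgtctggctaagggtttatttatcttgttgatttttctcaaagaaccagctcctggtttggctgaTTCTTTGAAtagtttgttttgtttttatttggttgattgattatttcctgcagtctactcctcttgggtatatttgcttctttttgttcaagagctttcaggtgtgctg

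In these windows 7 motifs were searched on both strands. They were the TATA box TATAAA, the glucocorticoid receptor half-site AGAACA, the nuclear receptor half-site AGGTCA, the STAT motif TTCNNNGAA, the CEBP motif TTGCNNAA, the HNF1 half-site GTTAAT and the FOXA core TGTTTA. The Sult1e1 window held 1 AGGTCA match, from -113 to -108 before the start site, and 2 TGTTTA matches, from -187 to -182 and from -101 to -96. Sult1b1 held 1 AGGTCA match at -123 to -118, Sult1d1 held 1 GTTAAT match at -79 to -74, and Sult3a1 held 1 TTCNNNGAA match at -109 to -101. None of these matches overlapped another. The 32851 RefSeq windows of the same length include every listed start site, whereas each member had 1 window. Over all of these RefSeq windows, AGGTCA was present in 14.0%, TGTTTA in 12.0%, GTTAAT in 6.43% and TTCNNNGAA in 7.02%. AGAACA, present in 16.1% of all windows, was found in 2 members, Sult1a1 and Sult1c2. In these members, whose windows are not shown, TGTTTA also matched in Sult1c2 and GTTAAT in Sult1a1. TGTTTA and GTTAAT were thus each found in 2 members. TATAAA, at 12.4% of all windows, and TTGCNNAA, at 9.56%, had 0 matches in the windows of the 10 members. A match describes letters in the window and says nothing of binding.

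Sult3a1 had the largest negative difference of the members. In mice its enzyme sulfates amines, and its liver mRNA is known to be more abundant in females. The probe set (1421669_at) read 1313.1 in the AKI pool and 9271.0 in the sham pool. Both signals were well above the level filter, and the sham signal was 7.06 times the AKI signal. The log2 difference of -2.75 stood beside a probe-set SD of 0.66 and was number 77 from the lowest among the 13128 genes. No further probe set of Sult3a1 was there to repeat it.

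Sult5a1, a family member whose substrates are little known, was also lower. Its probe set (1449816_at) read 1271.1 in the AKI pool and 2762.3 in the sham pool, a difference of -1.08 that lies just past the 2-fold threshold. Its value was -0.78 when the arrays were centred on hybridization controls and -1.33 when they were centred on reference genes, so its place beyond 2-fold depended on the scaling, and it came just within 2-fold with a pseudocount of 228.7. Sult1c2, another phenol sulfotransferase, read 190.4 in the AKI pool and 393.3 in the sham pool (1449409_at). Its difference of -0.83 was smaller than the SD of 0.90 in the lowest level class. Sult2b1, which sulfates cholesterol and other sterols and is known mainly from skin and other epithelia, read 18.7 in the AKI pool and 86.8 in the sham pool (1417335_at). Both values were under the level filter, so no difference is read from them.

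Sult1a1, the main phenol sulfotransferase, had strong signals in both pools. Its probe set (1427345_a_at) read 15003.7 in the AKI pool and 19056.0 in the sham pool, a difference of -0.34 beside an SD of 0.66. The suffix of this probe set marks it as one that may match several transcripts.

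**Figure D2:**
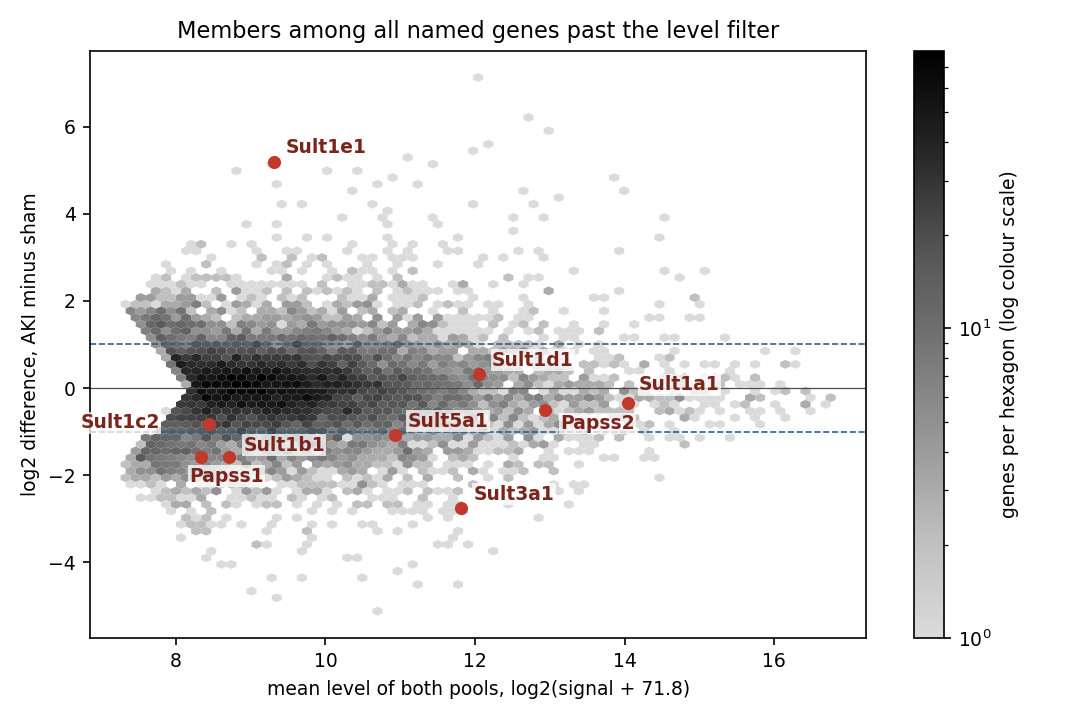
Log2 difference, AKI minus sham, against the mean log2 level of both pools for the 13128 genes past the level filter (grey hexagons, darker for more genes), with the 9 members past the filter as red points. Dashed lines mark 2-fold; Sult1e1 stands at 5.20 and Sult3a1 at -2.75, while Sult1a1, Sult1d1 and Papss2 lie between the lines.

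Of the sulfate-activating enzymes, Papss2 is the form that mouse liver is known to use most, and it was measured by 4 probe sets. The brightest (1434510_at) read 6528.5 in the AKI pool and 9304.6 in the sham pool, a difference of -0.51. Another (1421989_s_at) read 2425.1 in the AKI pool and 3243.1 in the sham pool (-0.41). The third (1421987_at) read 1456.2 in the AKI pool and 2298.0 in the sham pool (-0.63). These 3 probe sets were all lower in the AKI pool by similar amounts, none by 2-fold, and each difference was within the SD of 0.66. The remaining one (1421988_at), at 40.8 in the AKI pool and 11.1 in the sham pool, was under the filter on both arrays. Papss1, which carries the same activities, read 116.3 in the AKI pool and 488.0 in the sham pool (1415890_at). Its difference was -1.57 beside an SD of 0.90. Its AKI signal, too, was under the filter level.

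Weak signals limit several of these values. A list of 18 measured genes of other tissues, such as those of eye, testis and pituitary, had signals of 14.2 to 526.0 in the AKI pool (median 244.1) and 31.8 to 789.1 in the sham pool (median 192.6). Both signals of Sult1b1, Sult1c2, Sult2b1 and Papss1 lay within these ranges, as did the sham signal of Sult1e1. Signals of different probe sets are not on a common scale, so this shows only that such values also occur for genes that liver is not known to express.

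Other genes of the sulfation pathway were set beside the members, by the same level filter and fold threshold. Among cytosolic sulfotransferases outside the members, 5 of 13 were named on the array and 2 passed the filter, both of the bile acid and steroid sulfating Sult2a family. Sult2a2 read 12480.0 in the AKI pool and 13847.2 in the sham pool (-0.15), and Sult2a8 read 10740.4 in the AKI pool and 15514.5 in the sham pool (-0.53). Neither reached 2-fold. Several Sult2a genes are near-identical copies, so the signal of a probe set may come in part from other genes of the family.

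Most genes of a list on cysteine and its breakdown to sulfate and taurine were lower in the AKI pool. The list also holds Cbs and Cth, which act in the formation of cysteine. Of its 10 genes, all past the filter, 7 were at least 2-fold lower and 0 at least 2-fold higher, beside 12.5% and 10.4% of all genes. The median was -1.60. Suox, the sulfite oxidase that makes sulfate in the last step, read 821.5 in the AKI pool and 4381.8 in the sham pool (-2.32). Ethe1, the persulfide dioxygenase of sulfide oxidation, read 592.0 in the AKI pool and 3013.7 in the sham pool (-2.22). Tst, a thiosulfate sulfurtransferase, was at -2.06, and Csad, which diverts cysteine sulfinate towards taurine, was at -3.16. Cbs (-1.97), Cdo1 (-1.23) and Sqor (-1.18) were the others past 2-fold, while Cth, which forms cysteine, was at 0.10. Sqor is uncertain, since its second, weaker probe set was past 2-fold in the opposite direction, at 1.08. Each of Suox, Ethe1, Tst and Csad had 1 probe set, with an SD of 0.66 in their level class.

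Among 5 sulfate transporter genes, Slc26a1, which encodes a sulfate exchanger of the hepatocyte membrane, was the one at least 2-fold lower. It read 181.8 in the AKI pool and 1257.3 in the sham pool (-2.39). Its AKI signal was under the filter level, so it passed through the sham array alone, and its further probe set did not pass. The others had weak signals on both arrays, with Slc13a4 at 0.61, Slc26a2 at 0.57 and Slc26a6 at -0.23. Of 4 genes that remove the by-product PAP or carry PAPS into the Golgi, Slc35b3, a PAPS transporter, was at least 2-fold higher, with 1127.4 in the AKI pool and 356.9 in the sham pool (1.48). The second PAPS transporter Slc35b2 was at -0.73, the cytosolic PAP phosphatase gene Bpnt1 at -0.55 and its Golgi counterpart Bpnt2 at 0.54.

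Sulfotransferases of the Golgi, which act on proteins and glycans, and the sulfatases, which remove sulfate, had medians near 0. By the brightest probe set of each, 0 of 16 Golgi sulfotransferase genes past the filter reached 2-fold in either direction, and the median was -0.01. Chst7 (-0.97), Chst15 (0.92), Ndst4 (0.76) and Chst11 (0.73) were the farthest from 0, although another probe set of Ndst4 was at 1.79, one of Chst15 at 1.17 and one of Hs2st1 at 1.05. The 10 sulfatase genes and their activating factors past the filter had a median of -0.08, and 0 reached 2-fold by their brightest probe set. Arsg was at 0.72, Arsa at -0.54 and Galns at 0.48, and Arsk was at -0.47 with a second probe set at 0.86. Sulf2 was at 0.00 and Arsb at 0.01, but weaker probe sets were at -1.87 for Sulf2 and -1.22 for Arsb.

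**Figure D3:**
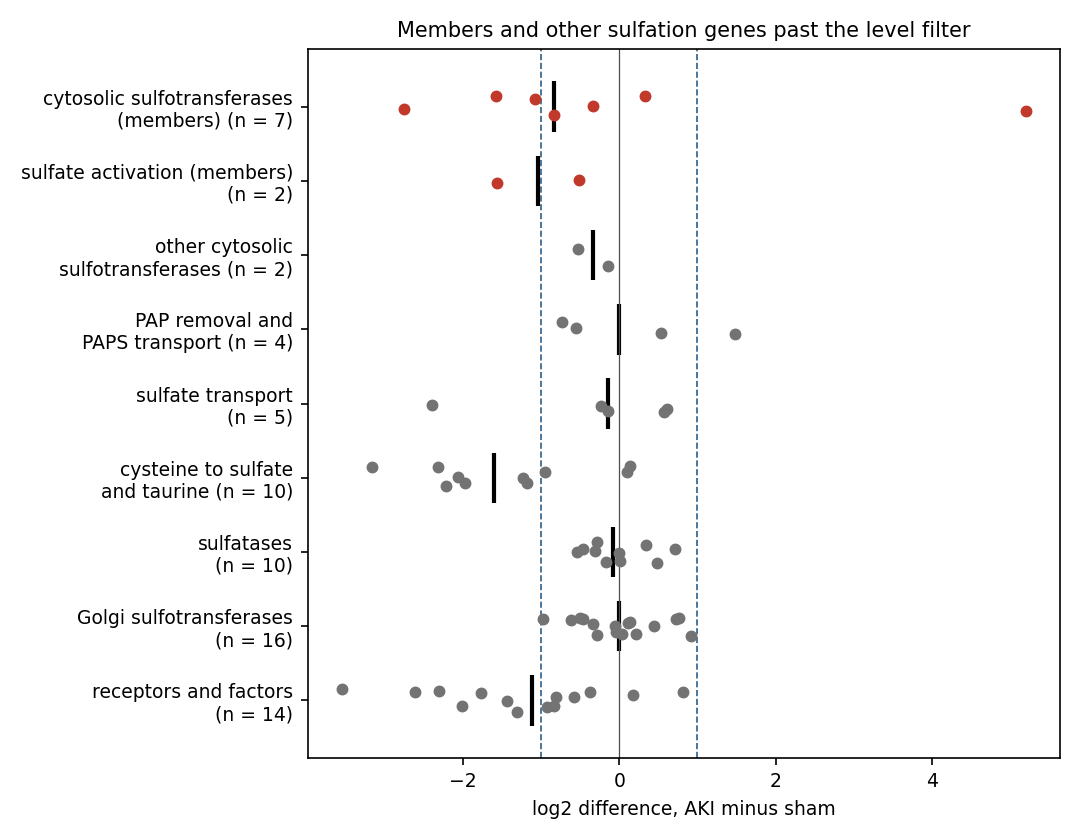
Log2 difference, AKI minus sham, of each gene past the level filter, for the members (red) and for other gene groups of sulfation (grey), with n the number of genes. Black bars are group medians and dashed lines 2-fold. The genes of cysteine formation and breakdown have a median of -1.60 and the Golgi sulfotransferases one of -0.01.

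Receptors and transcription factors that are known to act on Sult genes were mostly lower. Of 14 past the filter, 7 were at least 2-fold lower and 0 at least 2-fold higher, beside 12.5% and 10.4% of all genes, with a median of -1.12. The xenobiotic receptor gene Nr1i3 read 700.8 in the AKI pool and 4651.7 in the sham pool (-2.61). Nr1h4, the bile acid receptor gene, was at -2.31, Ppara, a receptor of fatty acids, at -2.01, and the corepressor gene Nr0b2 at -3.55. Nr0b2 read 83.0 in the AKI pool, under the filter level, and 1746.5 in the sham pool. It thus passed through the sham array alone. The probe sets of Ppara spanned -2.01 to -1.12. For other genes the probe sets disagreed. Nfe2l2 and Rxra were counted as lower, at -1.77 and -1.31, but a further probe set of Nfe2l2 was at 3.05 and one of Rxra at 0.01. Esr1, the estrogen receptor gene, was at -0.58 with another probe set at 1.64. Whether these differences bear on the members was not tested.

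The arrays carried strong signals of most of the defining genes of liver. All 10 hepatocyte markers passed the filter, and 0 of them reached 2-fold. Their summed signal was 684234.7 in the AKI pool and 711155.2 in the sham pool. Without Fgb, which was at 0.88, the other 9 summed to 577352.3 in the AKI pool and 652932.6 in the sham pool. Of the 10 differences 7 were below 0, with a median of -0.21. Ass1 was weak, at 185.4 in the AKI pool and 371.4 in the sham pool, and passed through the sham array alone. Markers of other cells did differ. The 8 measured neutrophil markers summed to 7962.6 in the AKI pool and 3230.3 in the sham pool. Without S100a8 the other 7 summed to 5939.2 in the AKI pool and 3068.9 in the sham pool. Of the 6 past the filter, 3 were at least 2-fold higher (S100a8, S100a9 and Ngp). The rest of these were Mmp8 (0.31), Ltf (0.19) and Csf3r (0.14), while Cxcr2 and Camp were under the filter on both arrays. The 10 Kupffer cell and macrophage markers summed to 10909.6 in the AKI pool and 17256.9 in the sham pool. Without Cd5l the other 9 summed to 9679.7 in the AKI pool and 14262.9 in the sham pool. Of the 10 markers, 3 were lower by 2-fold or more and 1 was higher. The 10 endothelial markers summed to 9890.0 in the AKI pool and 13137.1 in the sham pool. Without Clec4g the other 9 summed to 9216.0 in the AKI pool and 10051.0 in the sham pool. Of the 10 endothelial markers, likewise 3 were lower (Clec4g, Oit3 and Stab1) and 1 was higher (Lyve1). The 10 stellate cell markers summed to 24363.4 in the AKI pool and 17756.6 in the sham pool, but without Dcn the other 9 summed to 9641.2 in the AKI pool and 10031.7 in the sham pool. Of the 9 past the filter, 1 was at least 2-fold higher and 1 lower, with a median of -0.06. The 7 measured cholangiocyte markers summed to 3326.2 in the AKI pool and 1558.6 in the sham pool, and without Sox9 the other 6 summed to 1596.3 in the AKI pool and 1329.4 in the sham pool. Of the 3 that passed the filter, Sox9 was the one at least 2-fold higher. The part of these markers in the member differences was not tested. In such pooled tissue, fewer cells of a type and less RNA per cell cannot be told apart.

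All 10 member differences kept their sign under the 12 processing settings in which they could be computed, the reported setting included. Much of this was fixed in advance, since neither a pseudocount nor a level filter can change a sign. Averaging probe sets cannot move a gene with a single probe set. The sign of Sult2b1 comes from signals under the filter, and the probe sets of Sult1d1 had opposite signs. Sult1e1 spanned 3.93 to 6.81 over these settings, with both ends set by the pseudocount, and Sult3a1 spanned -3.0 to -2.46. Sult1b1 ranged from -1.93 to -1.14 and Papss1 from -2.06 to -1.05, so both stayed past 2-fold wherever they were computed. Sult1d1, by contrast, came down to 0.02, and Sult1a1 reached -0.05.

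**Figure D4:**
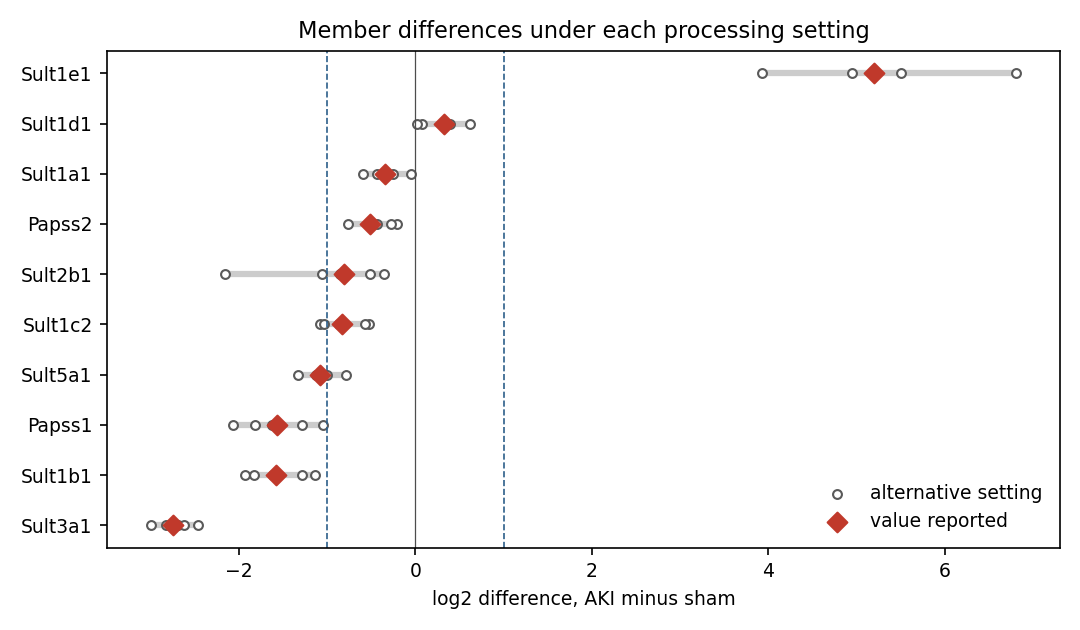
Log2 difference, AKI minus sham, of each member as reported (red diamonds) and under each alternative setting (open circles), with grey bars from lowest to highest. Dashed lines mark 2-fold; Sult1e1 stays at or above 3.93 and Sult3a1 at or below -2.46, while Sult5a1 lies on both sides of -1.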

How the data were processed

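Per the labels' protocols, Trizol was used to extract RNA from each liver pool, and 8 ug went into biotinylated cRNA for an Affymetrix array. The authors deposited 1 intensity value for each probe set and array, in linear units between 0.6 and 127786.6. The software and genome build behind them are not given in the sources used here. After the top and bottom 2% were trimmed, both arrays had a mean signal of 500.0, so the deposited arrays share a scaling target, and a difference in total mRNA between pools would be removed by it.

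The authors' scaling was kept. The pseudocount of 71.8 is the 25th percentile of the table. Members were found through the platform annotation, which can be old; probe sets with several symbols were left out. All 10 members and every one of their probe sets are described. In each further list up to 4 genes with the largest absolute difference are named, or all to complete a count of 5 or fewer; Cbs, Cdo1, Sqor, Cth, Nfe2l2, Rxra, Esr1, Hs2st1, Sulf2 and Arsb were added after their values were seen. Members and lists were chosen with earlier results of these data known. Motifs and sequences shown were chosen after the differences were known. The list of factors acting on Sult genes had 16 entries, that of sulfatases 15, and that of Golgi sulfotransferases 26.

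The 11 alternatives were 5 scalings (median centring, quantile normalization, lowess centring with a fraction of 0.3, and centring on reference genes or on 18 hybridization controls), pseudocounts of 1 and 228.7, dropping the level filter or raising it to the 75th percentile, averaging the probe sets of each gene, and omitting those with suffixes (_s_at, _x_at, _a_at) of possible matches to several transcripts. The computation was tested on simulated data. Python 3.11.15, numpy 2.4.6, pandas 2.3.3, statsmodels 0.14.6 and matplotlib 3.10.9 were used.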

Additional observations from a re-analysis of the deposited data

How the results depend on the processing

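Over the 11 alternatives, 7 to 10 members were counted. The number of members at least 2-fold higher was 1 each time, and that member was Sult1e1, beside 6.4% to 16.8% of all genes. The number at least 2-fold lower ranged from 3 to 5 around the reported 4, beside 8.09% to 18.1% of all genes. Centring on hybridization controls gave 3 members and 8.12% of all genes, and centring on reference genes gave 5 members and 18.1%. Sult5a1 left the count under centring on hybridization controls and under the pseudocount of 228.7, Papss1 was not counted under the stricter level filter, and Sult1c2 joined under centring on reference genes and under a pseudocount of 1. The member median ranged from -1.08 to -0.51. Of 109 recomputed member differences 106 moved by less than the probe-set SD of their level class and 0 changed sign. The others were Sult1e1 at 6.81 and 3.93 and Sult2b1 at -2.16, each under another pseudocount. Many of the 109 could not move. A level filter leaves a computed difference as it is, and averaging does so for a gene with a single probe set. Omitting suffixed probe sets kept the brightest one of every member that remained. A pseudocount can move a difference but cannot change its sign. Sult1a1 has no value once suffixed probe sets are omitted.

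Centring on hybridization controls moved the median of all genes to 0.28, and the 2-fold counts to 2211 higher and 1066 lower; centring on reference genes moved it to -0.27, and the counts to 930 higher and 2381 lower, against 1370 higher and 1635 lower as reported. A pseudocount of 228.7 gave 841 higher and 1063 lower.

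No paired analysis was possible because each group was 1 pool on 1 array, which also leaves no replicate to leave out.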
